A study of Mus musculus with 16 samples.

Results

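The glucocorticoid-induced genes are a group of transcripts that glucocorticoid hormones raise in many cell types, and 10 were sought here: Fkbp5, Tsc22d3, Sgk1, Map3k6, Errfi1, Ddit4, Klf9, Klf15, Fam107a and Zbtb16. Their probes were found by the gene name that the array files give. Probes were found for 9 of the 10 genes, 17 probes in all, among 28482 genes and 41174 probes on the array. Zbtb16 was not analysed here. All 9 main probes, the brightest of each gene, were well above background on all 16 arrays, which is the scanner software's own call of signal over local background.

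The arrays measured RNA of aortas from female C57BL/6 mice deficient in ApoE, which develop atherosclerosis, and every group shares this deficiency. All groups were ovariectomized at 4 to 5 weeks of age, fed a high-fat Western-type diet and given a pellet built to release for 90 days. The groups were MPA (medroxyprogesterone acetate) with its own placebo, and NET-A (norethisterone acetate) with its own placebo, with 4 arrays in each and aortas taken after 78 to 90 days. Doses are not stated in the labels. Ovariectomy removes the ovarian source of progesterone and estrogen but leaves the adrenal glands, and whole aorta holds many cell types, so fewer cells of a type and less RNA per cell cannot be told apart in any value below. Separate animals are not stated for the samples of a group, and p-values then cover only sample-to-sample spread, which may be technical.

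Glucocorticoids act through the glucocorticoid receptor Nr3c1, a transcription factor held by chaperones in the cytoplasm until it binds hormone and then moves to DNA. It binds an inverted repeat, the glucocorticoid response element, that the progesterone and mineralocorticoid receptors can also bind. MPA is known to bind the glucocorticoid receptor as well as the progesterone receptor, and norethisterone binds the glucocorticoid receptor weakly. In vessels, glucocorticoids are known for restraining inflammatory genes and for altering vascular tone.

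The promoter windows that hold the core of this repeat are shown because they carry the sequence through which the receptor is known to act. RefSeq windows of build GRCm38.p6, 300 bases each around an annotated start site, were matched by symbol for all 9 genes with probes, giving 19 windows. They are written from 5′ to 3′ on the strand of the gene, with the match in capitals. Sgk1 is shown at chr10:21993640-21993939 (plus strand), Map3k6 at chr4:133240568-133240867 (plus strand) and Fam107a at chr14:8309728-8310027 (minus strand).
Sgk1: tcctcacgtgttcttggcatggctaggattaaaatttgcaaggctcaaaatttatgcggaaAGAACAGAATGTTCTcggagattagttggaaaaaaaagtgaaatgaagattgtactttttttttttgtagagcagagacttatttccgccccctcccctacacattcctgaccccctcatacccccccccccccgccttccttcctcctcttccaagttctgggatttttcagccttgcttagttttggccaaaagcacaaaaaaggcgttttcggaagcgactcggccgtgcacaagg
Map3k6: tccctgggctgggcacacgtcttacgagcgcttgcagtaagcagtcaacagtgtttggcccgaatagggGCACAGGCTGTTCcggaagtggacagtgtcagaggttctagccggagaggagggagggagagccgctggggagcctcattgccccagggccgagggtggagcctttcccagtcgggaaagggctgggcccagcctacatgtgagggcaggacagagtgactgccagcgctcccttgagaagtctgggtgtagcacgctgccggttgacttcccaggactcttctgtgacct
Fam107a: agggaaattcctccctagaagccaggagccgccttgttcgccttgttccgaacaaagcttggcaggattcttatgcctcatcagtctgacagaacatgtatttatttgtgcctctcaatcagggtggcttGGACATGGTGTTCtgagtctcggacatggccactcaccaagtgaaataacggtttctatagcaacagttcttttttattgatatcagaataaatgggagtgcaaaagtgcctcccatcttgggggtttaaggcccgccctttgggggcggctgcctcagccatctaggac

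The full repeat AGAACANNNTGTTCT, which reads as itself on the other strand, was found in 1 of the 19 windows. It was 1 of the 6 windows of Sgk1, each at its own annotated start site. There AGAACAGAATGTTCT started 189 bases before the start site of that window. The other Sgk1 windows held neither the full repeat nor its core. Among all windows 3 of 32851 windows (0.00913%) held the full repeat. The core GNACANNNTGTNC, also its own reverse complement and contained in the full repeat, was found in windows of 3 of the 9 genes, against 145 of 27025 genes in the table (0.537%). By window it was found in 4 of the 19, against 0.475% of all windows, and overlapping Fam107a windows share a match. In the only Map3k6 window the core reads GCACAGGCTGTTC, 181 bases before the start site. In the Fam107a window shown, 1 of 3 for that gene, it reads GGACATGGTGTTC, 120 bases before the start site of that window. The single arm AGAACA, searched on both strands and contained in the full repeat, was found for 3 of the 9 genes, against 21.3% of all genes in the table. By window the arm was found in 6 of the 19, against 19% of all windows. Each of these 3 genes had more than 1 window, and a gene with more windows has more bases searched. A match is a description, not a bound site, and no match says only that these letters are not in this window.

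With MPA all 9 genes stood lower than with placebo, and with NET-A all 9 stood higher than with placebo, in experiments on separate slides. The median change was -0.73 on the log2 scale with MPA and 0.51 with NET-A. No gene of the group passed the test after adjustment over all genes in either comparison (limma, Benjamini-Hochberg threshold 0.05). Levels below are log2 signals relative to the 75th percentile of each array, and changes are differences of mean log2 levels, progestin minus its placebo, ± standard error with 4 arrays per group. Probe positions are on build mm9, as the array files give them.

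**Figure D1:**
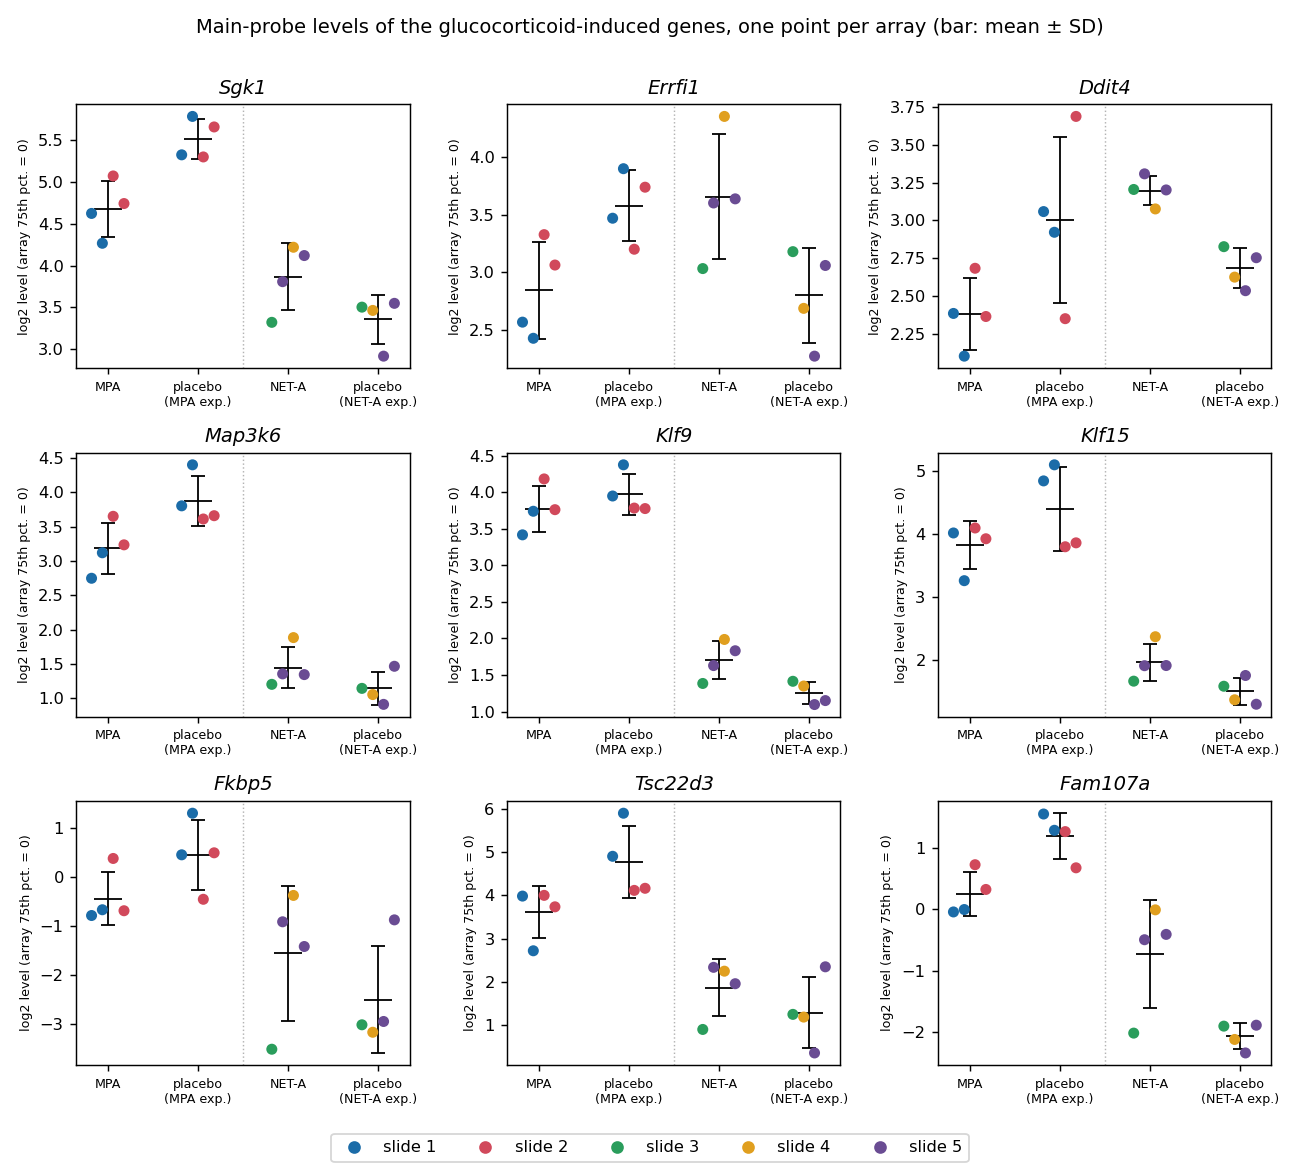
Level of each gene by its main probe on each array, as log2 signal relative to the array's 75th percentile, for MPA, its placebo, NET-A and its placebo. Points are single arrays coloured by slide, bars are mean ± SD of 4 arrays, and vertical axes differ between genes. All 4 MPA arrays lie below all 4 placebo arrays for Sgk1 and Tsc22d3, and all 4 NET-A arrays lie above all 4 placebo arrays for Ddit4.

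Among feedback regulators and mediators of the receptor, Fkbp5 encodes a co-chaperone of Hsp90 that lowers the hormone affinity of the receptor. Its main probe (chromosome 17, 28574995 to 28575054) read -0.78, -0.67, 0.38 and -0.69 on the MPA arrays, against 0.46, 1.31, -0.45 and 0.50 on placebo arrays. The groups overlapped through MPA replicate 3, which stood apart above the other MPA arrays. The change was -0.89 ± 0.39 (adjusted p = 0.786, limma). In the NET-A experiment it read -3.52, -0.91, -0.37 and -1.42 with NET-A, against -3.02, -3.17, -2.95 and -0.87 with placebo. NET-A replicate 1 was the lowest of the 8 arrays and placebo replicate 4 stood well above the other placebo arrays, so that the groups overlapped. The change was 0.95 ± 0.76 (adjusted p = 0.933), with a 95% interval from -0.79 to 2.68. It was 1.60 without NET-A replicate 1, 0.55 without NET-A replicate 3, 1.49 without placebo replicate 4, and 0.27 with the normexp background correction. The other probes of Fkbp5 gave -0.70 and -1.58 with MPA and 0.24 and 0.88 with NET-A, and were not well above background on every array.

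Tsc22d3 encodes GILZ, a leucine zipper protein that mediates anti-inflammatory actions of glucocorticoids. Its main probe (chromosome X, 137074393 to 137074452) read 3.99, 2.72, 4.00 and 3.74 with MPA, against 4.91, 5.90, 4.12 and 4.17 with placebo. All MPA arrays lay below all placebo arrays, although the nearest arrays of the groups, MPA replicate 3 and placebo replicate 3, were close. The change was -1.16 ± 0.44, a ratio of 0.447 (adjusted p = 0.752, limma). An exact permutation test gave a two-sided p = 0.0286, the smallest possible for 4 against 4, which the separation fixes. This test was run for every gene of the group. Where groups overlapped, it gave p from 0.0571 to 0.343 with MPA and from 0.0571 to 0.4 with NET-A. NET-A arrays read 0.90, 2.34, 2.25 and 1.96, against 1.25, 1.19, 0.36 and 2.35 on placebo arrays. Here placebo replicate 4 was the highest of all 8 arrays, and the groups overlapped. The change was 0.58 ± 0.46 (adjusted p = 0.933), and it was 0.27 without placebo replicate 3, 0.93 without placebo replicate 4 and 0.90 without NET-A replicate 1. Both other probes of Tsc22d3 pointed the same way in each experiment, with -1.30 and -1.01 for MPA and 0.41 and 0.65 for NET-A.

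Among kinases, Sgk1 encodes the serum- and glucocorticoid-regulated kinase, which acts on ion channels and transporters. The probe (chromosome 10, 21719390 to 21719449) read 4.62, 4.27, 5.07 and 4.74 with MPA, against 5.33, 5.79, 5.30 and 5.66 with placebo. Every MPA array lay below every placebo array. The group means were 4.68 ± 0.33 with MPA and 5.52 ± 0.24 with placebo (SD, n = 4 each). The change was -0.84 ± 0.20, a ratio of 0.558 (adjusted p = 0.690, limma), with an exact permutation p = 0.0286, two-sided, which the separation fixes. With NET-A it read 3.32, 3.81, 4.22 and 4.12, against 3.50, 3.46, 2.92 and 3.55 with placebo. Of the NET-A arrays 3 lay above every placebo array, and NET-A replicate 1 lay among the placebo arrays. The change was 0.51 ± 0.23 (adjusted p = 0.819). A second Sgk1 probe was well above background on 0 of the 16 arrays and was not tested.

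Map3k6 encodes a kinase of stress-activated MAP kinase cascades. Its main probe (chromosome 4, 132808784 to 132808843) read 2.75, 3.12, 3.65 and 3.24 with MPA, against 3.81, 4.40, 3.61 and 3.66 with placebo. MPA replicate 3 reached the lowest placebo arrays and the other MPA arrays lay below them. The change was -0.68 ± 0.24 (adjusted p = 0.752, limma), and -0.54 ± 0.24 by the gene's other probe. With NET-A the main probe read 1.21, 1.36, 1.89 and 1.35, against 1.15, 1.06, 0.91 and 1.47 with placebo, so that only NET-A replicate 3 exceeded every placebo array. The change was 0.30 ± 0.19 (adjusted p = 0.896), the smallest of the 9 with NET-A, and 0.16 without NET-A replicate 3.

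Among inhibitors of growth signalling, Errfi1 encodes a feedback inhibitor of the EGF receptor. The probe (chromosome 4, 150242526 to 150242585) read 2.57, 2.43, 3.33 and 3.06 with MPA, against 3.47, 3.90, 3.20 and 3.74 with placebo. Only MPA replicate 3 and placebo replicate 3 were out of order, and the change was -0.73 ± 0.24 (adjusted p = 0.752, limma). With NET-A it read 3.03, 3.60, 4.36 and 3.64, against 3.18, 2.69, 2.27 and 3.06 with placebo. NET-A replicate 1 lay among the placebo arrays and the other 3 lay above them. The change was 0.86 ± 0.31, a ratio of 1.81 (adjusted p = 0.722).

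Ddit4 encodes REDD1, an inhibitor of the growth-promoting kinase complex mTORC1. The probe (chromosome 10, 59412486 to 59412545) read 2.38, 2.10, 2.68 and 2.36 with MPA, against 3.06, 2.92, 2.35 and 3.69 with placebo. Placebo replicate 3 lay within the range of the MPA arrays, and the change was -0.62 ± 0.27 (adjusted p = 0.787, limma), or -0.39 without placebo replicate 4. With NET-A it read 3.20, 3.31, 3.08 and 3.20, against 2.83, 2.62, 2.53 and 2.75 with placebo. These groups did not overlap and were the tightest of the 9 genes in this experiment. The group means were 3.20 ± 0.10 with NET-A and 2.68 ± 0.13 with placebo (SD, n = 4 each). The change was 0.51 ± 0.12 (adjusted p = 0.606), and an exact permutation test gave a two-sided p = 0.0286, which the separation fixes.

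Klf9 and Klf15 encode zinc finger transcription factors of the Krüppel-like family. Klf9 (main probe on chromosome 19, 23240138 to 23240197) read 3.42, 3.74, 4.18 and 3.76 with MPA, against 3.95, 4.37, 3.78 and 3.78 with placebo. MPA replicate 3 was the second highest of the 8 arrays and the change, -0.20 ± 0.21, was within its error (adjusted p = 0.895, limma). It was -0.06 without placebo replicate 2, -0.08 without MPA replicate 1 and -0.33 without MPA replicate 3. NET-A arrays read 1.38, 1.63, 1.99 and 1.83, against 1.41, 1.35, 1.10 and 1.15 with placebo. All but NET-A replicate 1 lay above every placebo array, with a change of 0.46 ± 0.16 (adjusted p = 0.720). The second Klf9 probe gave -0.44 ± 0.24 with MPA and 0.64 ± 0.19 with NET-A.

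Klf15 (main probe on chromosome 6, 90425007 to 90425066), a regulator of amino acid and lipid use in muscle and liver, read 4.01, 3.26, 4.09 and 3.92 with MPA, against 4.84, 5.10, 3.80 and 3.86 with placebo. The placebo arrays fell into a high pair on slide 1 and a low pair on slide 2, and only MPA replicate 2 lay below them all. The change was -0.58 ± 0.33 (adjusted p = 0.837, limma), or -0.34 without placebo replicate 2. With NET-A it read 1.66, 1.91, 2.37 and 1.91, against 1.58, 1.37, 1.75 and 1.30 with placebo. NET-A replicate 1 lay below the highest placebo array and the others lay above it, and the change was 0.46 ± 0.18 (adjusted p = 0.776). A dimmer Klf15 probe gave -0.19 ± 0.23 with MPA and 0.54 ± 0.26 with NET-A.

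Fam107a encodes an actin-associated protein of the stress response. The probe (chromosome 14, 9129330 to 9129389) read -0.044, -0.0045, 0.72 and 0.32 with MPA, against 1.55, 1.28, 1.26 and 0.67 with placebo. MPA replicate 3 stood just above placebo replicate 4 and no other arrays were out of order. The change was -0.94 ± 0.24, a ratio of 0.520 (adjusted p = 0.690, limma). With NET-A it read -2.01, -0.50, -0.0094 and -0.41, against -1.90, -2.12, -2.34 and -1.89 with placebo. NET-A replicate 1 lay among the placebo arrays, and the other NET-A arrays lay well above all of them. The change was 1.33 ± 0.40, a ratio of 2.51 (adjusted p = 0.631), the largest of the 9 with NET-A. With the normexp background correction it was 0.77.

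The genes were chosen with earlier results of these data known, so counts here and below describe the group and are no independent evidence. Counted over the group, 9 of 9 genes had a change below 0 with MPA, against 49.5% of the 15374 genes tested, whose median change was 0.0029. At an unadjusted p under 0.05, 7 of the 9 were lower, against 2.54% of all genes. That count was 3 without placebo replicate 2, 4 without placebo replicate 1, MPA replicate 1 or MPA replicate 2, and 0 within slide 2. For counts with arrays left out or within slides, the share of all genes is not given here. The groups did not overlap for 2 of the 9, both lower, against 1.51% of all genes. Once adjusted, limma called 0 of the 9 and 0 of all genes (0%), the smallest adjusted p being 0.647, while 575 genes were higher and 391 lower at an unadjusted p under 0.05. With NET-A 9 of 9 genes had a change above 0, against 45.7% of 21183 genes, whose median change was -0.023. Here 5 of the 9 were higher at an unadjusted p under 0.05, against 2.51% of all genes, and the groups did not overlap for 1 of the 9, against 1.58%. The count of 5 became 2 without NET-A replicate 3, and 3 without NET-A replicate 4, placebo replicate 3 or placebo replicate 4. Limma again called 0 of the 9 and 0 of all genes (0%) once adjusted, the smallest adjusted p being 0.321, with 531 genes higher and 776 lower at an unadjusted p under 0.05. Of the 8 other probes of these genes 7 were tested, and all 7 were below 0 with MPA and above 0 with NET-A.

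The change with MPA less the change with NET-A was computed over all 16 arrays for 15243 genes kept in both experiments. All 9 genes gave a difference below 0, against 48.6% of all genes, and their median was -1.35 where that of all genes was 0.011. At an unadjusted p under 0.05, 8 of the 9 were lower, against 2.43% of all genes. Within slides 2 and 5 the count was 3 of the 9, for which the share of all genes is not given here. Limma called 0 genes (0%) once adjusted, the smallest adjusted p being 0.175, with 681 genes higher and 371 lower before it. Fam107a gave -2.27 ± 0.48 (95% interval -3.29 to -1.25, adjusted p = 0.269, limma), the 12th smallest p of all genes, and Sgk1 gave -1.35 ± 0.31 (95% interval -2.02 to -0.68, adjusted p = 0.269), the 34th smallest. Errfi1 gave -1.59 ± 0.40 (adjusted p = 0.329) and Ddit4 -1.13 ± 0.30 (adjusted p = 0.416). The interval of Fkbp5, -3.73 to 0.05, was the widest and the only one that reached past 0. Without NET-A replicate 1 the difference for Fam107a was -2.70 ± 0.31 and passed (adjusted p = 0.00794), the only gene of all that did. The difference sets one progestin and its slides against the other progestin and its slides, so compound and experiment cannot be told apart in it, and matched doses are not stated.

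**Figure D2:**
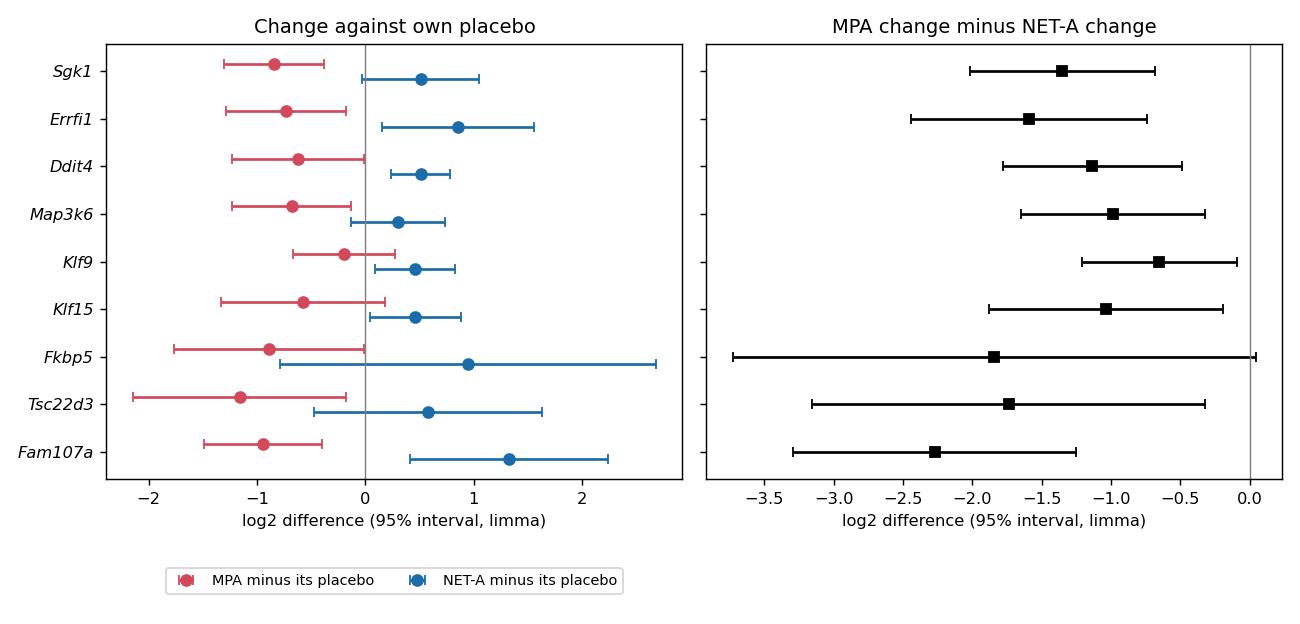
Left, log2 change of each gene with MPA (red) and with NET-A (blue), each minus its own placebo. Right, the MPA change minus the NET-A change. Points are estimates and bars 95% intervals by limma with 4 arrays per group; all 9 MPA estimates lie below 0 and all 9 NET-A estimates above 0.

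A change below 0 with MPA together with a change above 0 with NET-A was found for 9 of 9 genes, against 24% of the 15243 genes kept in both experiments. The experiments share no control arrays. This count too is a description, as the genes were chosen with earlier results of these data known.

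**Figure D3:**
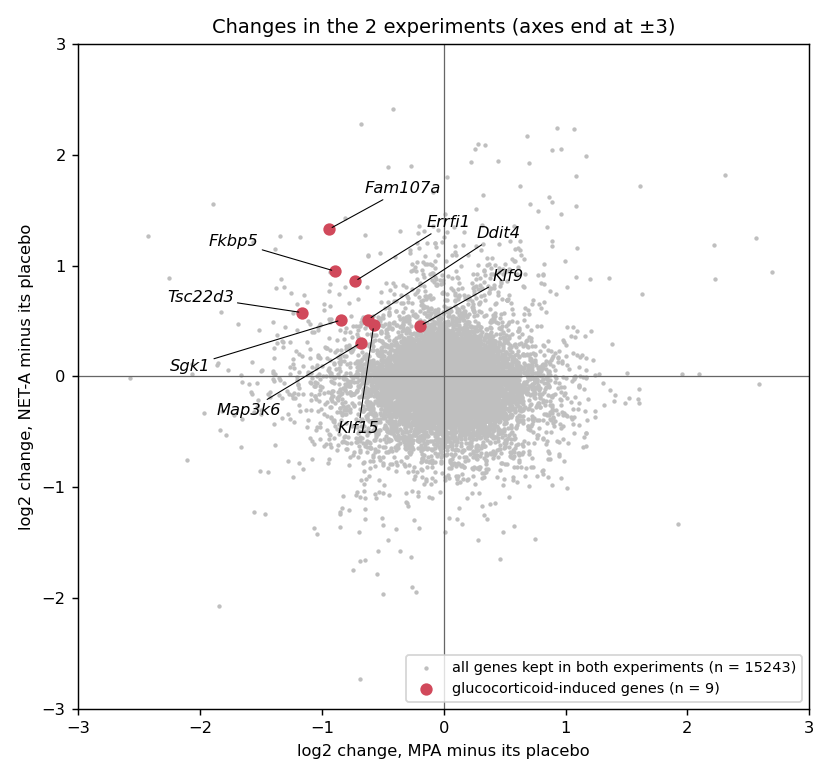
Log2 change with MPA minus its placebo (horizontal) against log2 change with NET-A minus its placebo (vertical), one grey point per gene kept in both experiments (15243) and the 9 glucocorticoid-induced genes in red. The red points all lie in the upper left, and 5 genes lie outside the plotted axes.

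The direction was not equal on every slide. Slide 1 held MPA replicates 1 and 2 with placebo replicates 1 and 2, and there all 9 genes were lower with MPA, against 52.4% of all genes, with a median of -1.19 and values from -2.05 for Tsc22d3 to -0.58 for Klf9. Slide 2 held the other MPA and placebo arrays, and there 7 of 9 were lower, against 44.2% of all genes, with a median of -0.27, while Klf9 gave 0.19 and Klf15 0.18. The change on slide 1 less that on slide 2, a comparison chosen after seeing the data, was below 0 for all 9 genes, against 55.2% of all genes, from -1.78 for Tsc22d3 to -0.25 for Ddit4. Limma gave adjusted p from 0.842 to 0.937 for it and called 0 of 15207 genes, with 5 of the 9 and 832 of all genes at an unadjusted p under 0.05. In the NET-A experiment slide 5 held 2 arrays per group and gave 9 of 9 genes higher with NET-A, where 58.5% of all genes were lower, with a median of 0.73. Slide 4, with 1 array per group, also gave 9 of 9 higher, where 52.4% of all genes were lower, with a median of 1.00 and a highest value of 2.80 for Fkbp5. Slide 3, with NET-A replicate 1 and placebo replicate 1, gave 6 of 9 lower, against 44.7% of all genes, and a median of -0.11. Deviations from group means went together on a slide in the NET-A experiment, where progestin and placebo arrays of the same slide correlated over genes by 0.14 to 0.46 and those of different slides by -0.35 to 0.13. In the MPA experiment these ranges were -0.24 to 0.26 and -0.26 to 0.21. With the slide as a block 5 of 9 genes were lower with MPA and 5 of 9 higher with NET-A at an unadjusted p under 0.05. The shares of all genes under that fit are not given here, so these counts have no background beside them.

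**Figure D4:**
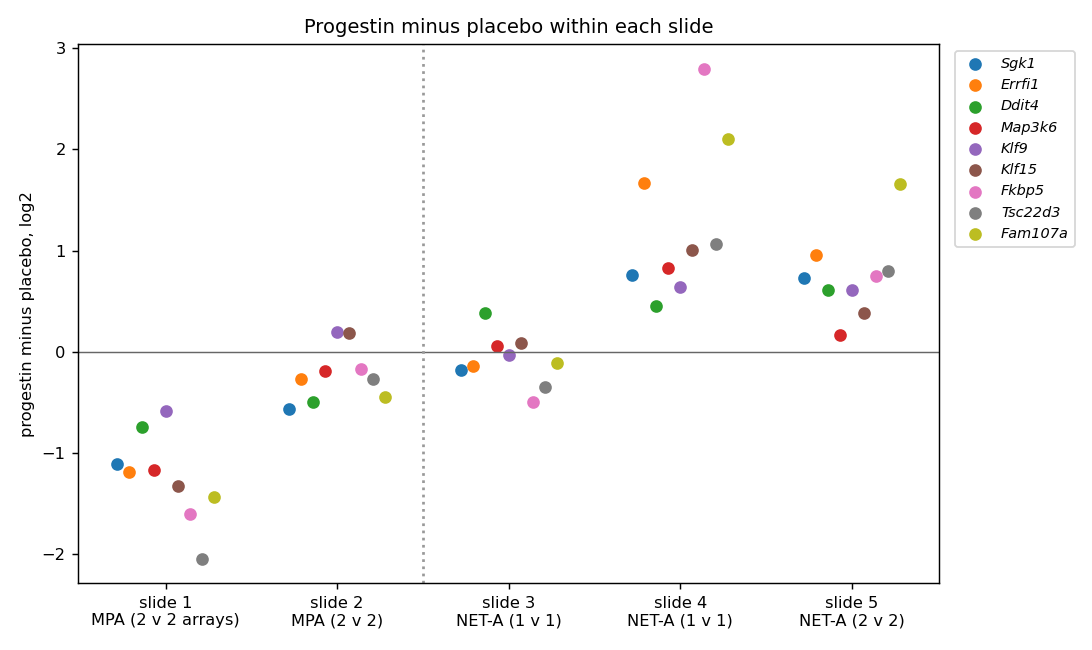
Progestin minus placebo within each slide, in log2, for the 9 genes (colours). Slides 1 and 2 hold the MPA experiment and slides 3 to 5 the NET-A experiment; slides 3 and 4 have 1 array per group, so their points have no replicate error. Slide 1 runs from -2.05 to -0.58, slide 2 from -0.57 to 0.19, slide 3 from -0.50 to 0.38, slide 4 from 0.45 to 2.80 and slide 5 from 0.16 to 1.66.

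A few arrays were extreme for most of the genes. In the MPA experiment placebo replicate 2 was the highest of the 8 arrays for 7 of 9 genes, and the lowest was MPA replicate 2 for 5 and MPA replicate 1 for 4. In the NET-A experiment NET-A replicate 3 was the highest for 7 of 9 genes and placebo replicate 3 the lowest for 7 of 9. The fewest spots well above background were found on MPA replicate 2 (46.3%, where the most in that experiment was 60.6%) and on NET-A replicate 1 (62.3%, where the most was 78.5%). Without MPA replicate 2 all 9 genes were still below 0 with a median of -0.66, and without NET-A replicate 1 all 9 were still above 0 with a median of 0.69.

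Over the 16 arrays, after the mean of each experiment was subtracted, levels of the 9 genes went together, with Pearson's r from 0.44 (Ddit4 with Klf9) to 0.93 (Sgk1 with Errfi1) over 36 pairs. These arrays share the treatments and slides described above, so the r values describe the arrays and carry no test. The genes whose pattern was most like that of Sgk1, among 15246, were Errfi1 (r = 0.93, Spearman's rho = 0.95), Cebpd (0.88 and 0.86) and Slc10a6 (0.86 and 0.81). For Fkbp5 they were 6030422H21Rik (0.91 and 0.89), Dedd2 (0.84 and 0.84) and Slc10a6 (0.83 and 0.80).

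Levels were not compared between the experiments, because placebo levels differed by probe. Placebo of the MPA experiment less placebo of the NET-A experiment was 2.72 for the main probe of Map3k6 and 0.40 for its other probe, and 2.90 and -0.39 for those of Klf15. Over 15247 genes this difference had an SD of 1.22.

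Other genes that glucocorticoids are known to induce were lower with MPA in 24 of 30 cases, against 49.5% of all genes, with a median change of -0.27. With NET-A 22 of 30 were higher, against 45.7% of all genes, with a median of 0.07. Their mean centred level ran from -0.37 to 0.05 on MPA arrays, against -0.02 to 0.32 on placebo arrays. On NET-A arrays it ran from -0.17 to 0.31, against -0.36 to 0.21 on placebo arrays, so the groups overlapped in both experiments. None passed after adjustment by limma. At an unadjusted p under 0.05, 4 were lower and 1 higher with MPA, against 2.54% and 3.74% of all genes. With NET-A 1 was lower and 4 higher, against 3.66% and 2.51%. The largest changes were those of Mfsd2a, a lysolipid transporter, with -1.89 ± 0.66 for MPA and 1.55 ± 1.25 for NET-A, of Lcn2, an iron-scavenging lipocalin, with -0.51 ± 0.45 and -1.27 ± 0.52, and of Gpx3, a secreted glutathione peroxidase, with 0.66 ± 0.35 and 1.06 ± 0.63. The Mfsd2a probe was well above background on 3 of 4 arrays in each group but the placebo of MPA, where it was on 4 of 4. Lcn2 was thus lower in both experiments and Gpx3 higher in both.

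Inflammatory genes that glucocorticoids are known to repress were lower in 9 of 10 tested with MPA (median -0.57), against 49.5% of all genes. With NET-A 12 of 13 were lower (median -0.76), against 54.3% of all genes. The exceptions were Il1b with MPA (1.05 ± 0.62) and Ptgs2 with NET-A (0.20 ± 0.42). Mean centred levels of the list were 1.47 on MPA placebo replicate 4, -0.17 to 0.08 on the other MPA placebo arrays and -0.72 to 0.02 on MPA arrays. They ran from -0.68 to 0.23 on NET-A arrays, against -0.11 to 0.90 on their placebo arrays. None passed after adjustment. At an unadjusted p under 0.05, 3 were lower with MPA and 5 with NET-A, against 2.54% and 3.66% of all genes. The largest were the cytokine Il6 with -3.07 ± 0.89 for MPA and -1.46 ± 0.53 for NET-A, the neutrophil-attracting chemokine Cxcl1 with -1.07 ± 0.48 and -1.37 ± 0.33, and the interferon-induced chemokine Cxcl10 with -1.28 ± 0.69 and -0.76 ± 0.81. The Il6 probe was well above background on all arrays but 1 MPA array. Receptors, chaperones and coregulators divided evenly, with 5 lower and 6 higher of 11 in each experiment. The glucocorticoid receptor Nr3c1, named here as the receptor itself, gave -0.08 ± 0.21 with MPA and 0.22 ± 0.15 with NET-A. The largest of this list were the mineralocorticoid receptor Nr3c2 with 1.16 ± 0.34 and -0.31 ± 0.18 and the estrogen receptor Esr1 with 0.41 ± 0.18 and 0.52 ± 0.23. The Nr3c2 probe was well above background on 4 of 4 MPA arrays and 2 of 4 of their placebo arrays. Clock genes, several of which glucocorticoids also regulate, had 7 of 13 lower with MPA and 7 of 14 lower with NET-A. The largest were Per3 with 0.86 ± 0.26 and -0.75 ± 0.25, Cry1 with 0.09 ± 0.46 and -0.59 ± 0.29, and Ciart with -0.46 ± 0.25 and 0.27 ± 0.43. The Cry1 probe was well above background on 3 of 4 MPA arrays, and on 2 of 4 arrays in each of the other groups. That of Ciart was so on all arrays of the MPA experiment, on 3 of 4 NET-A arrays and on 2 of 4 of their placebo arrays.

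Immediate early genes, which respond to stimulation and to tissue handling, were lower with MPA in 13 of 14 (median -0.33), against 49.5% of all genes. They were higher with NET-A in 11 of 15 (median 0.29), against 45.7% of all genes, and none passed after adjustment. The nuclear receptor Nr4a1 gave -0.99 ± 0.25 with MPA and 0.66 ± 0.40 with NET-A, the transcription factor Atf3 -0.94 ± 0.16 and 0.52 ± 0.68, and the AP-1 subunit Fos -0.53 ± 0.27 and 0.0049 ± 0.68. Their mean centred level ran from -0.36 to 0.08 on MPA arrays, against 0.01 to 0.30 on placebo arrays, and from -0.44 to 0.39 on NET-A arrays, against -0.64 to 0.57 on placebo arrays. Their part in the values of the glucocorticoid-induced genes was not tested.

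Of the smooth muscle markers 8 of 8 were well above background on all 16 arrays, with median changes of 0.02 with MPA and -0.02 with NET-A. So were 8 of 8 endothelial, 7 of 7 fibroblast, 9 of 9 macrophage, 6 of 6 erythroid and 7 of 8 adipocyte markers. Detection alone thus does not verify the tissue label. Skeletal muscle markers stood on the same sides of placebo as the 9 genes, lower in 5 of 5 tested with MPA (median -2.26) and higher in 8 of 8 with NET-A (median 1.26), with Myh2, a fast myosin heavy chain, at -3.29 ± 1.45 and 1.96 ± 0.74. Its probe was well above background on 1 of 4 MPA arrays and 3 of 4 placebo arrays there. Of the 8, 4 were well above background on all 16 arrays. The mean centred level of those tested ran from -1.16 to -0.77 on MPA arrays, against -0.77 to 3.86 on placebo arrays. The 3.86 was placebo replicate 3 alone, and the other placebo arrays there ran from -0.77 to 0.63. In the NET-A experiment the level ran from -1.03 to 1.32 on NET-A arrays, against -0.83 to -0.18 on placebo arrays. Arrays differed in how this level stood to that of the 9 genes, which is given second here. On opposite sides of 0 were MPA placebo replicates 1 (-0.77 and 0.44) and 3 (3.86 and -0.05) and MPA replicate 3 (-0.97 and 0.08). So were NET-A placebo replicate 4 (-0.83 and 0.05) and NET-A replicates 1 (1.03 and -0.36) and 4 (-1.03 and 0.42). The other arrays were on the same side. Among them were NET-A replicate 3 (1.32 and 0.81), the highest of its experiment in both, and MPA placebo replicate 2 (0.63 and 0.84). Another was MPA replicate 2 (-1.16 and -0.72), the lowest of its experiment in both. Macrophage markers were lower in 9 of 9 with MPA (median -0.53) and 9 of 9 with NET-A (median -0.54). Of all genes 49.5% were lower with MPA and 54.3% with NET-A. At an unadjusted p under 0.05 by limma, 5 were lower with MPA and 1 with NET-A, against 2.54% and 3.66% of all genes. Their mean centred level was 1.21 on NET-A placebo replicate 4 and from -0.23 to 0.10 on the other NET-A placebo arrays. On NET-A arrays it ran from -0.54 to 0.05. On MPA arrays it ran from -0.48 to -0.06, against -0.08 to 0.62 on their placebo arrays. Neutrophil markers were higher in 5 of 5 with MPA (median 2.56) and 6 of 6 with NET-A (median 1.07), and erythroid markers in 6 of 6 (0.85) and 5 of 6 (1.38). Medians of endothelial, fibroblast and adipocyte markers were 0.18, -0.30 and -0.0050 with MPA and 0.19, 0.06 and -0.04 with NET-A. The part of these cell types in the values of the glucocorticoid-induced genes was not tested.

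**Figure D5:**
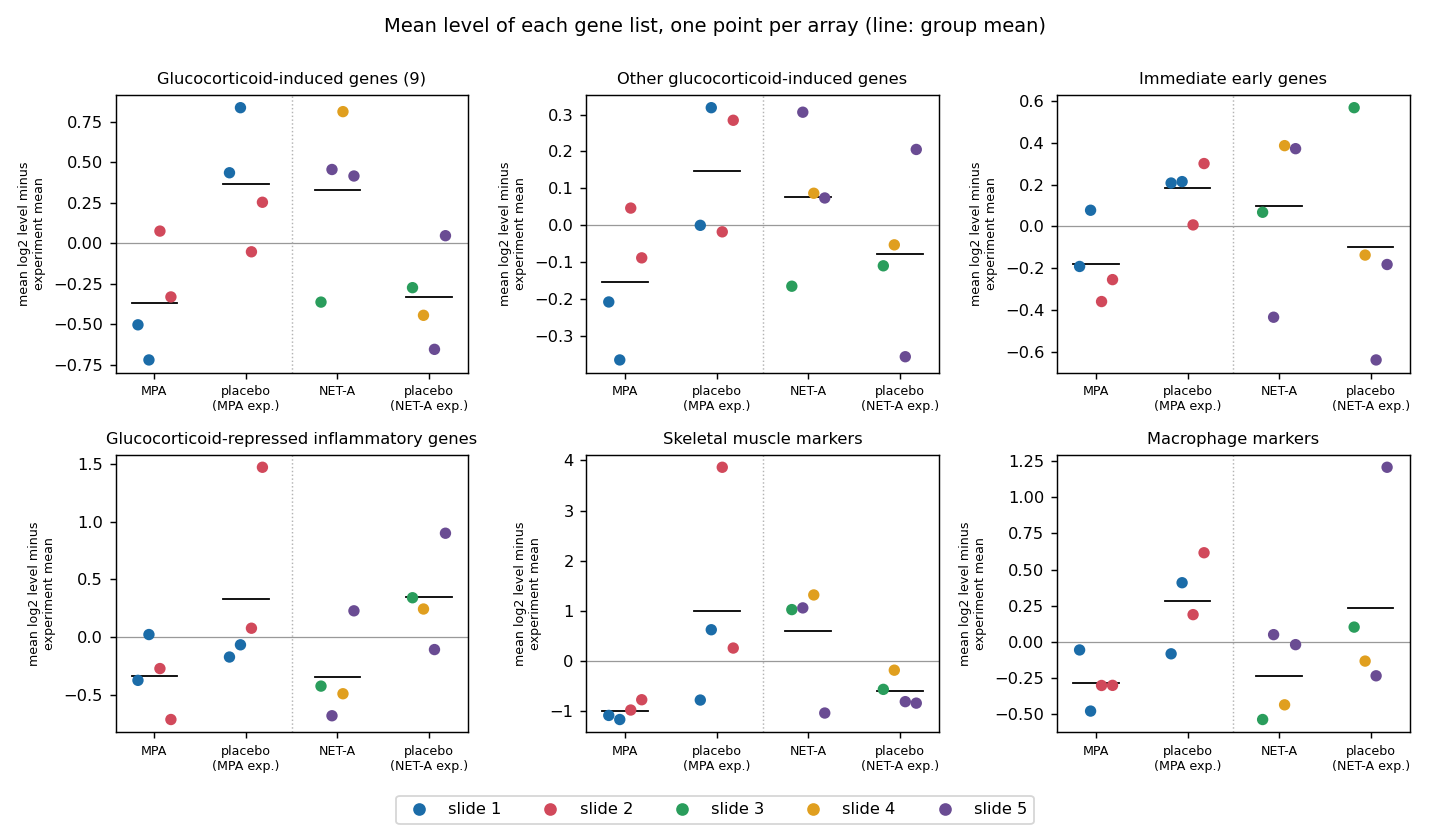
Mean log2 level of 6 gene lists on each array after the mean of each gene in its experiment was subtracted, for MPA, its placebo, NET-A and its placebo; points are arrays coloured by slide and lines group means. The 9 glucocorticoid-induced genes run from -0.72 to 0.08 with MPA, against -0.05 to 0.84 with placebo, and from -0.36 to 0.81 with NET-A, against -0.65 to 0.05 with placebo.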

How the data were processed

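Aortic RNA (100 ng per sample, labelled with Cy3) was read on 16 one-colour Agilent arrays. Per the file headers, Agilent Feature Extraction read the spot intensity (version 10.7.1.1 for MPA and its placebo, version 11.0.1.1 for NET-A and its placebo), annotations are on build mm9, and the deposited processed intensity is background-subtracted and not normalized between arrays. The NET-A files carry no gene names, so probes were named through the MPA files by probe name. The series table deposited by the authors holds log2 values, with no account of how they were made in the labels or headers; it served as an alternative only, its columns correlate with their own arrays, and its scale, centring and direction are inferred from that.

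Spots marked as outliers were left out (0.515% of spot values, which left 0.274% of probe values missing), no spot was saturated, and log2 processed signals had the array's 75th percentile over non-control probes subtracted. Spots of a probe were averaged, and a gene took its brightest probe over 16 arrays. Of the probes, 26690 matched a reference name by accession and 14484 kept the array's name. A gene was tested when well above background on at least 4 of the 8 arrays of an experiment, by limma 3.58.1 in R 4.3.3 (lmFit, eBayes, two-sided, Benjamini-Hochberg over all genes tested). Simulated data took these arrays' means and spreads, with independent spread on each array and no slide effect. Genes changed by 2 on the log2 scale were recovered in 91% of cases for MPA (15378 genes). Recovery was 83% for NET-A (21183 genes) and 81% for the difference (15247 genes). That size exceeds every change of the glucocorticoid-induced genes against placebo, and every difference but that of Fam107a. Smaller changes were not simulated, so these shares do not describe recovery at the sizes seen. Figures used Python 3.11.15.

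The genes and lists were chosen with earlier results of these data known. All members are named; from each other list the 3 genes with the largest absolute change in either experiment are named for the glucocorticoid, receptor, immediate early and clock lists, and counts with examples for the cell type lists; 1 gene of the receptor list that the rule would name is not reported here. The placebo groups, marked M and N in the titles, were read as the controls of MPA and NET-A. The labels state no pairing by replicate number, and none was assumed. Correlations of same-numbered samples ran from -0.24 to 0.24 in the MPA experiment and from -0.33 to 0.33 in the NET-A experiment. Those of differently numbered samples ran from -0.26 to 0.26 and from -0.35 to 0.46. With 4 arrays per group, and number partly mixed with slide, these values cannot decide whether the numbers pair the samples. Alternatives were scaling, background correction, filters, probe choice, slide and replicate blocks, fits within slides, array weights and leaving out each array. The number of arrays limits the precision. Probe coordinates are those of the array files; promoter windows come from RefSeq on another build and the 2 were not mixed.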

Additional observations from a re-analysis of the deposited data

Results flagged for a closer look

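Of 36 groups of 4 arrays, 3 held an array whose gap to the nearest of the others was large for the range of its group by Dixon's criterion; chance gives about 1 in 20. Sgk1 in the NET-A placebo group read 2.92 in replicate 3, below 3.46 to 3.55 in the other arrays. Fkbp5 read 0.38 in MPA replicate 3, above -0.78 to -0.67 in the other MPA arrays. Fkbp5 read -0.87 in NET-A placebo replicate 4, above -3.17 to -2.95 in the other placebo arrays. All 3 spots were well above background. No explanation was tested.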

How the results depend on the processing

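All 9 genes stayed below 0 with MPA in 20 of 21 alternatives, with medians from -1.19 to -0.27, above 0 with NET-A in 20 of 20 (0.45 to 0.73), and below 0 for the difference in 30 of 30 (-1.84 to -1.07). Within slide 2 the MPA change turned to 0.19 for Klf9 and 0.18 for Klf15; the cause was not tested. Genes past the threshold numbered 0 with MPA, or 2 with the slide as a block (S100a8 and S100a9). With NET-A they were 0 in each of 20 alternatives. For the difference they were 0, or 1 with the replicate block (Sall4; it and the S100a genes are named after their values were seen) and 1 (Fam107a, -2.61, adjusted p = 0.0281, limma) without MPA replicate 2 and NET-A replicate 1 together, an alternative chosen after seeing the data. Leaving out 1 array gave 0 to 0 genes with MPA, 0 to 0 with NET-A and 0 to 1 for the difference, the 1 being Fam107a without NET-A replicate 1. Over 30 alternatives the adjusted p of Fam107a for the difference ran from 0.00794 to 0.644, and 2 of them passed. At an unadjusted p under 0.05 the count of the 9 genes ran from 0 to 8 with MPA, 2 to 7 with NET-A and 3 to 9 for the difference. The shares of all genes at that p in these alternatives, blocks included, are not given here. The replicate block changed no adjusted call of the 9 genes and gave 4 of 9 with MPA and 3 of 9 with NET-A at an unadjusted p under 0.05, with medians of -0.73 and 0.51, and the labels state no pairing by number. With normexp, for which the NET-A arrays used median in place of mean spot signals, the smallest adjusted p of the 9 genes was 0.0892 with MPA (range over alternatives 0.0892 to 1.00), 0.825 with NET-A and 0.0910 for the difference. Under it the MPA change moved by over 1.5 times to -0.55 for Klf9, -0.90 for Klf15, -0.94 for Ddit4 and -0.56 for Fkbp5, and the difference to -0.83 for Fkbp5 and -1.02 for Klf9; the cause was not tested. Quantile normalization and the authors' series table put the MPA change of Klf9 at -0.07 and -0.09. Signal over background limits Fkbp5, of whose 3 probes 2 were not well above background on every array, and 4 arrays per group limit every value.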
